A study of Mus musculus with 10 samples.

Results

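The goblet product genes described here are Muc2, Tff3, Fcgbp, Zg16, Clca3, Agr2, Spink4, Rep15, Guca2a and Klk1. They were taken by gene symbol, and all 10 were found among the 18022 genes that the tables list over all libraries. The study counted transcripts by CEL-seq2, a method that tags each molecule with a random barcode and reads transcript 3′ ends, in cells from small intestinal crypts of C57Bl/6 mice. The 3 picked libraries (experiment codes JC68, JC71 and JC72, here picked replicates 1 to 3) hold groups of a few cells taken by mouth pipette after a mild dissociation. The sorted libraries hold single cells and carry the code GK5b in 2 libraries (endings G and L, here sorted replicates 6 and 7) and GK5a in 5 libraries (sorted replicates 1 to 5). The labels name no mutation or treatment, each library is a plate of 384 wells with spike-in RNA, and the labels give neither the animals' age nor which libraries share an animal. The p-values below thus take in the variation among these libraries alone, and part or all of it may be technical.

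Goblet cells are secretory cells of the gut lining that fill with mucin granules and release them onto the epithelium. Their precursors arise from dividing progenitors in the crypt and stop dividing as they mature. Muc2 encodes the gel-forming mucin that makes up the intestinal mucus, and Fcgbp, Clca3 and Zg16 encode further proteins of that mucus: a large protein that binds mucin, a metalloprotease-like protein also called gob-5, and a lectin that binds bacterial cell walls. Tff3 encodes the trefoil peptide that is secreted with the mucin and takes part in epithelial repair. Agr2 is a protein disulfide isomerase of the endoplasmic reticulum that is needed for Muc2 production in mice. Spink4 encodes a small Kazal-type peptide, Guca2a encodes guanylin, a peptide that activates an intestinal guanylate cyclase, and Klk1 is tissue kallikrein, a serine protease. Rep15 binds the small GTPase Rab15 and acts in receptor recycling from endosomes, so it is the one member that is not a product for secretion or its chaperone.

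The 10 genes lie at separate places in the genome. On GRCm38 (GENCODE M21), Muc2 is at chr7:141690340-141754693 and Fcgbp at chr7:28071236-28120862, both on the plus strand, and Zg16 is at chr7:127050156-127087328 on the minus strand. Klk1 is at chr7:44225360-44229618, plus strand, in a cluster of near-identical kallikrein genes, so reads of its Klk1b copies may have been counted with it and its values are uncertain. Tff3 is at chr17:31125306-31129646 (minus) and Clca3, an earlier symbol of the gene that RefSeq now lists as Clca1, at chr3:145003817-145032776 (minus). Agr2 is at chr12:35992907-36004087, Spink4 at chr4:40920052-40931395, Guca2a at chr4:119637704-119639471 and Rep15 at chr6:147032584-147034245, all on the plus strand. Each is annotated as protein coding.

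Promoter sequences are shown because the 10 genes moved together between kinds of goblet well. RefSeq's table for GRCm38.p6 held windows of 300 bases, from 250 before to 50 after the annotated start, for 5 of the 10 members, and 4 are printed 5′ to 3′. All 4 lie on the plus strand: Muc2 at chr7:141690090-141690389, Fcgbp at chr7:28070986-28071285, Guca2a at chr4:119637482-119637781 and Agr2 at chr12:35992675-35992974. Capitals mark every match, on either strand, to the E-box motifs CAGCTG and CAGATG, of the type that ATOH1-family factors bind, and to the forkhead motif TGTTTAC.
Muc2: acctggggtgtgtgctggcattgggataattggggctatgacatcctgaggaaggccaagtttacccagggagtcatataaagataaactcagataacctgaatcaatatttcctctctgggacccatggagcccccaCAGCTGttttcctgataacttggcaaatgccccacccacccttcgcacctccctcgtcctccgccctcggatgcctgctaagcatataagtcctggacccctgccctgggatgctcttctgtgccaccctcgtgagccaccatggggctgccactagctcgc
Fcgbp: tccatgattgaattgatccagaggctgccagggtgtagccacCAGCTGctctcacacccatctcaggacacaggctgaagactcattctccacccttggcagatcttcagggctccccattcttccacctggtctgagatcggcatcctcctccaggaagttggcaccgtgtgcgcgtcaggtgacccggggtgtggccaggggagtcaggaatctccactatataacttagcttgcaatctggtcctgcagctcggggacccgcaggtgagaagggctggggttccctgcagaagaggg
Guca2a: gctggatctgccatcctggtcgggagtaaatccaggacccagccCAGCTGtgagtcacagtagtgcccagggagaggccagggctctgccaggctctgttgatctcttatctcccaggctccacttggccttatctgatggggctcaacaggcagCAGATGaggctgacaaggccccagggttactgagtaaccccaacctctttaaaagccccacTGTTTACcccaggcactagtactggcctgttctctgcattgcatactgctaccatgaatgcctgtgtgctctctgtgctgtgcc
Agr2: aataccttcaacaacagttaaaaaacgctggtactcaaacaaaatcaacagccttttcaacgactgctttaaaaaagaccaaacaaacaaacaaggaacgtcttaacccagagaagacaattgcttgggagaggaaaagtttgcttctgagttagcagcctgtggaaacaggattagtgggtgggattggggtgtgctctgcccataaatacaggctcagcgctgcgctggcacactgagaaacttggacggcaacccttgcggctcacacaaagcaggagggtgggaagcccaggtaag
The Muc2 window holds CAGCTG from position -112 and the Fcgbp window from position -208, counted from the start. The Guca2a window holds CAGCTG from -206, CAGATG from -95 and TGTTTAC from -34, with no overlap between them, and the Agr2 window holds none of the 3. Among all 32851 promoter windows of this length, 16.3% hold CAGCTG, 17.2% hold CAGATG, 30.6% hold at least 1 of these E-boxes and 3.65% hold TGTTTAC. A match is a description of letters and not evidence of binding.

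The 501 picked and 1615 sorted wells whose endogenous transcripts summed to 1000 or more were used, and their transcripts sum to between 821829 and 1232610 per picked library and between 1022860 and 4832580 per sorted library. Well numbers 1 to 384 recur in every plate, so they identify no cell across libraries, and no doublet caller was run because picked wells hold several cells by design. A well was called a goblet-rule well when a list of 19 other goblet genes, none of them a member, made up at least 10 of 10000 of its transcripts with at least 3 of the genes present. The tables list 18 of the 19, and each of these 18 was above 0 in the goblet-rule wells of every library. Of these wells, 67 were picked and 536 sorted, and 20 to 35 wells of each picked and 9 to 38 of each sorted library lay near the threshold, between 5 and 20 per 10000. Some libraries stand apart: GK5b libraries have many more goblet-rule wells than GK5a libraries, and the goblet-rule wells of picked replicate 1 differ from those of the other picked libraries. Picked and sorted libraries also differ in sex, with Xist at 132.1 ± 20.3 CPM in picked (SD, n = 3) and 0.269 ± 0.379 CPM in sorted libraries (n = 7) and the Y-linked Ddx3y at 0 in picked and 77.2 ± 16.2 CPM in sorted libraries, so picking, experiment code and sex cannot be told apart.

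In single goblet-rule wells the 10 genes together took a large share of the transcripts. They made up 8.12% ± 4.77 (SD, n = 3) of all transcripts of goblet-rule wells in picked libraries and 9.38% ± 0.932 (n = 7) in sorted libraries, with a difference of -1.26 percentage points that the exact two-sided permutation test over libraries did not separate from 0 (p = 0.5). The highest share of any well was 51.3%, in sorted replicate 5. After thinning each well to 2000 transcripts, a median of 7.5 to 9 of the 10 members was detected per goblet-rule well, and all 10 were detected in 0% to 40.9% of those wells, depending on the library. Between wells of a sorted library, Agr2 varied least and Zg16 most: the coefficient of variation over goblet-rule wells averaged 0.608 ± 0.083 for Agr2, 0.743 ± 0.161 for Tff3, 0.910 ± 0.184 for Muc2, 1.41 ± 0.079 for Clca3 and 1.60 ± 0.188 for Zg16 (SD, n = 7 libraries). Of thinned sorted goblet-rule wells, 48.96% ± 10.6 had a transcript of Rep15, 65.7% ± 6.03 of Clca3, 68.7% ± 6.77 of Klk1 and 72.7% ± 9.13 of Zg16, while the other 6 members were each found in more wells, up to 97.2% ± 3.09 for Muc2 and 99.4% ± 1.21 for Tff3. Without thinning the shares were 74.5% for Rep15, 76.1% for Clca3, 83.6% for Klk1, 82.4% for Zg16, 98.6% for Muc2 and 99.2% for Tff3.

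Goblet-rule wells that were cycling had lower levels of every member than the other goblet-rule wells of the same library. A well counted as cycling with at least 5 transcripts of Mki67 and Top2a, 2 genes that dividing cells express, and 6 sorted libraries had at least 5 wells of each kind. These libraries held 6 to 68 cycling wells each. The transcripts of both kinds were summed per library, scaled with TMM factors (trimmed mean of M values) to CPM, the number per 1000000 transcripts, and compared with limma on the log2(CPM + 1) scale with the library as a block. All 10 members passed at a Benjamini-Hochberg adjusted p under 0.05, all lower in cycling wells, where 23.8% of 4817 genes passed, 12.4% lower and 11.4% higher. All 10 were also lower in cycling wells in each of the 6 libraries, as 14.2% of tested genes were. The median log2 fold change was -1.85 over the members and -0.04 over all tested genes. All 10 members were again called lower in GK5a libraries alone, where 12.5% of genes passed, and without sorted replicate 7, where 16.7% did.

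Among the mucus proteins, Muc2 ranged from 2030 to 9749 CPM with a median of 5493 CPM in cycling wells, against 17312 to 26652 with a median of 23193 CPM in other goblet-rule wells (n = 6 libraries each). The groups did not overlap, and the log2 fold change was -2.12 ± 0.19 (SE, limma adjusted p = 3.37e-05). Zg16 showed the largest drop and the widest spread: it ranged from 147.9 to 11353 CPM with a median of 4040 CPM in cycling wells, against 20562 to 42991 with a median of 29645 CPM in other wells. It was lowest in the cycling wells of sorted replicates 3 and 5, at 147.9 and 335.3 CPM. These values rest on 9 and 31 transcripts from 6 and 7 wells. The log2 ratio of cycling to other wells was -6.89 and -6.25 in these libraries and -2.83 to -1.64 in the others. Over all of them the log2 fold change of Zg16 was -3.97 ± 0.62 (limma adjusted p = 0.00114). Clca3 ranged from 248.2 to 2496 CPM with a median of 1112 CPM in cycling wells, against 3543 to 8273 with a median of 5360.0 CPM in other wells, and Fcgbp from 2142 to 8427 with a median of 3470 CPM, against 9264 to 21807 with a median of 13635 CPM. Neither pair of groups overlapped. Their log2 fold changes were -2.34 ± 0.29 for Clca3 (adjusted p = 0.000257) and -1.85 ± 0.12 for Fcgbp (adjusted p = 4.42e-06).

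The small secreted peptides were lower as well. Tff3 ranged from 7266 to 14812 CPM with a median of 9222 CPM in cycling wells, against 25079 to 39949.5 with a median of 32124 CPM in other goblet-rule wells, a log2 fold change of -1.71 ± 0.11 (adjusted p = 4.42e-06 in limma). Spink4 ranged from 1872 to 6168 CPM with a median of 2979 CPM in cycling wells, against 5183 to 14885 with a median of 12747 CPM in other wells (log2 fold change -1.84 ± 0.17, adjusted p = 4.79e-05). Cycling wells of sorted replicate 6, the library with the most of them, overlapped other wells of sorted replicate 4 in Spink4, while within each library cycling wells were lower. For Guca2a the levels were 1353 to 3538 CPM with a median of 2203 CPM in cycling wells, against 5875 to 11501 with a median of 7736 CPM in other wells (log2 fold change -1.84 ± 0.20, adjusted p = 9.64e-05). Klk1, with 354.3 ± 191.3 CPM in cycling and 1359 ± 301.8 CPM in other wells (SD, n = 6), had a log2 fold change of -2.09 ± 0.22 (adjusted p = 9.22e-05), and Rep15, with 160.4 ± 51.3 CPM in cycling and 580 ± 179.1 CPM in other wells, one of -1.84 ± 0.19 (adjusted p = 8.80e-05).

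Agr2, the chaperone, had the log2 fold change nearest to 0. It ranged from 3246 to 7369 CPM with a median of 4185 CPM in cycling wells, against 7490.1 to 12716 with a median of 10266 CPM in other goblet-rule wells, and the groups did not overlap. Its log2 fold change was -1.17 ± 0.14 (limma, adjusted p = 0.000188). Within libraries, the ratio of cycling to other wells was the highest of the 10 genes for Agr2 in 4 of 6 libraries and the lowest of the 10 for Zg16 in 5 of 6. Against the median of the other 9 genes in the same library, the log2 ratio differed by 0.72 ± 0.253 for Agr2 and -2.14 ± 2.09 for Zg16 (SD, n = 6). An exact two-sided sign-flip permutation test, added after seeing the data, gave p = 0.0312 for Agr2, the smallest that 6 libraries allow, and 0.0625 for Zg16, and 0.156 for both when adjusted over the 10 genes, so neither difference passed. A test of whether the cycling effect differed between GK5b and GK5a libraries called 0 of the 4817 genes in limma at adjusted p under 0.05, with 41 genes and no member at an unadjusted p under 0.05. The effect on Zg16 was -2.61 in GK5b and -4.65 in GK5a libraries, with an unadjusted p of 0.131 for the difference. A count of 0 does not show that the effect was alike in both codes.

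**Figure D1:**
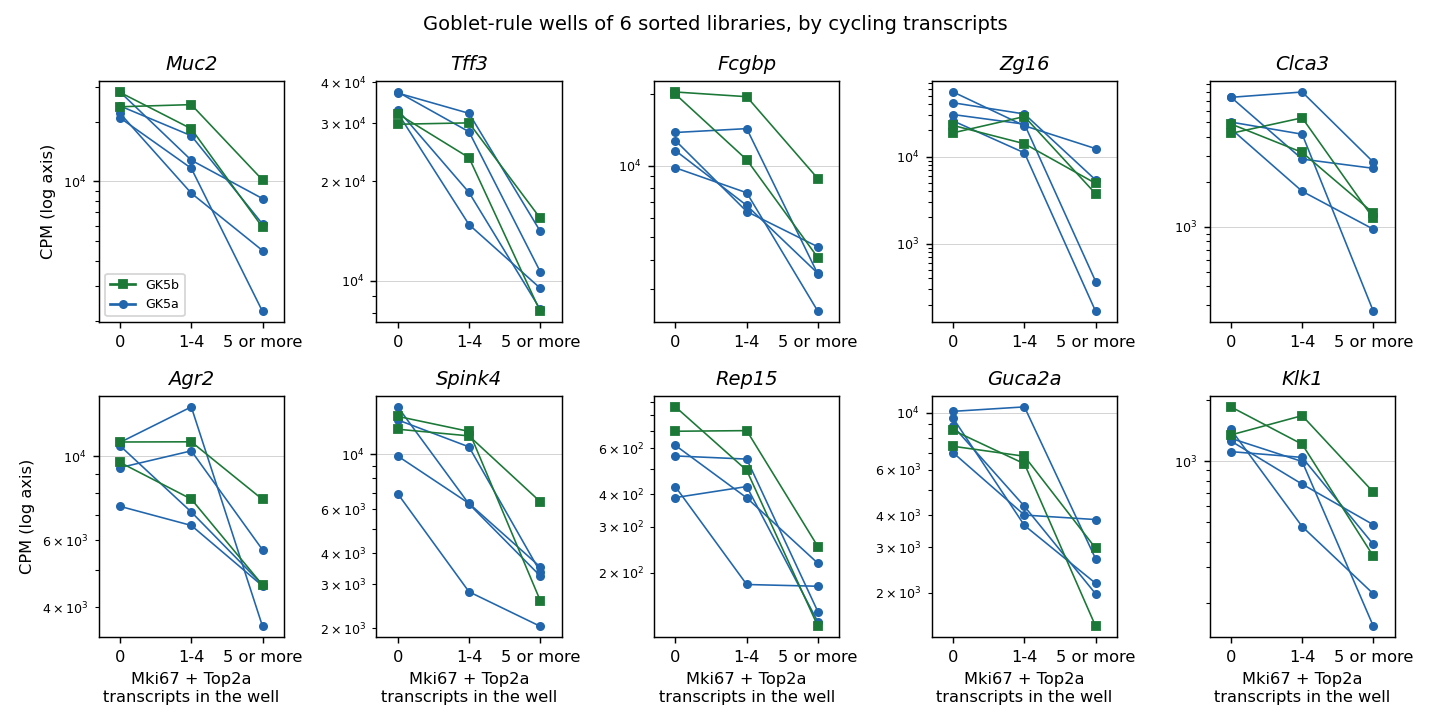
Level of each member (CPM, log axis, one panel per gene) in goblet-rule wells with 0, 1 to 4, and 5 or more transcripts of Mki67 and Top2a, for 6 sorted libraries (green squares GK5b, blue circles GK5a, lines join the points of a library). The point at 5 or more is below the point at 1 to 4 for all 60 combinations of gene and library, and the point at 1 to 4 is below the point at 0 for 47 of 60. Levels are CPM without TMM, and the share of all genes with this order was not counted.

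Splitting the other goblet-rule wells further, as the plot of levels by cycling transcripts shows, gave an order that held more often at its upper end. These 3 steps and the test between codes were chosen after seeing the data. The level in wells with 5 or more cycling transcripts was below that in wells with 1 to 4 for all 60 combinations of 10 genes and 6 libraries. These levels are CPM without TMM. The share of all genes with the same order was not counted, so the order is not shown to be particular to the members. Wells with 1 to 4 were below wells with 0 in 47 of the 60, in 6 of 6 libraries for Spink4, in 5 of 6 for Muc2, Tff3, Fcgbp, Zg16, Guca2a and Klk1, in 4 of 6 for Clca3 and Rep15, and in 3 of 6 for Agr2. The steps held 6 to 68, 9 to 92 and 23 to 51 wells per library, from the highest step to the lowest. Cycling wells differed from other goblet-rule wells in further ways that move with these results. Their median transcript total was 7855 to 25466, against 4111 to 11367 in other wells of the 6 libraries. With every well thinned to 2000 transcripts all 10 members were again lower and called, where 9.68% of genes passed. Thinning changed the summed values alone: wells kept the class called at full depth, so it cannot show whether depth shaped the cycling call. With cycling set at 5 per 10000 transcripts of the well, all 10 members were also called lower, where 16.9% of genes passed. The rule's own genes made up 21.04 to 50.3 of 10000 transcripts in cycling wells, against 51.4 to 71.3 in other wells, and 17 of 18 tested were called lower, with a median log2 fold change of -1.32. All 12 genes of the Paneth list (antimicrobial defensins, lysozyme and other products of Paneth cells) were called lower, with a median of -4.30, and their summed level ran from 1217 to 2782 CPM in cycling wells, against 5345 to 34315 CPM in other wells of the 7 sorted libraries. With wells that also met another class rule left out, all 10 members were again called lower, where 25.02% of genes passed.

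Other genes of the goblet program were lower in cycling wells in the same fit, but less uniformly. Of 15 other secreted goblet products tested, 13 were called lower and 2 higher, among them the chemokine Ccl6 (563 ± 210 CPM in cycling and 2473 ± 848 CPM in other wells, SD, n = 6, log2 fold change -2.14), Hgfac (-2.07), the antimicrobial Lypd8 (-1.23) and the membrane mucin Muc13 (-0.62). Of 16 genes of granule traffic, 10 were lower, including the calcium sensor Syt7 (-1.94), Bcas1 (-2.20), the protease Capn9 (-1.74) and the granule GTPase Rab27b (-1.13). Of 28 genes of protein folding in the endoplasmic reticulum, 19 were lower, including the sulfhydryl oxidase Qsox1 (-1.24), the disulfide isomerase P4hb (-0.82), the selenoprotein Selm (-0.91) and the chaperone Calr (-0.75). Mucin glycosylation genes were lower in 16 of 26, among them the core glycosyltransferase Gcnt3 (-0.91), the sulfotransferase Chst4 (-1.40) and Slc35c1 (-0.64). The list of goblet transcription factors also holds the Notch ligands Dll1 and Dll4. Of its 14 tested genes, 6 were lower and none higher, including Creb3l4 (-1.11), Klf4 (-0.72), Xbp1 (-0.51) and Creb3l1 (-0.50), and the other 8 did not pass. Bcas1, Capn9, Hgfac, Creb3l4 and Creb3l1 are also genes of the goblet rule. Of 4 stem cell genes tested, 3 were higher. With library totals in place of TMM, the median of all genes moved by 0.24, the share of higher genes among those called moved to 74.7% against 47.9%, and all 10 members were still called lower.

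The picked libraries were not tested for cycling, since Mki67 and a mucin may come from different cells of one picked group. Only picked replicate 3 had at least 5 goblet-rule wells of each kind. There the log2 ratio of cycling to other wells was -1.88 for Spink4, -1.35 for Zg16, -0.87 for Muc2, -0.24 for Agr2, 0.06 for Clca3 and 0.03 for Guca2a.

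Across wells the levels of the members were correlated, some pairs far more tightly than others. All co-expression values are Spearman correlations over the wells of 1 library, given as a description with no p, since wells of a library share depth and free RNA. Over the goblet-rule wells of each sorted library (38 wells or more), the median over libraries was above 0 for all 45 pairs, with a median pair of 0.487. Muc2 and Tff3 were the closest pair at 0.827 (0.609 to 0.880 over the 7 libraries), followed by Muc2 with Klk1 at 0.780 (0.686 to 0.821). Zg16 with Clca3 was at 0.766 (0.470 to 0.843), and Tff3 with Fcgbp at 0.766 (0.720 to 0.848). Muc2 had the highest mean correlation with the other 9 genes, 0.616, and Spink4 and Agr2 the lowest, 0.352 and 0.362.

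**Figure D2:**
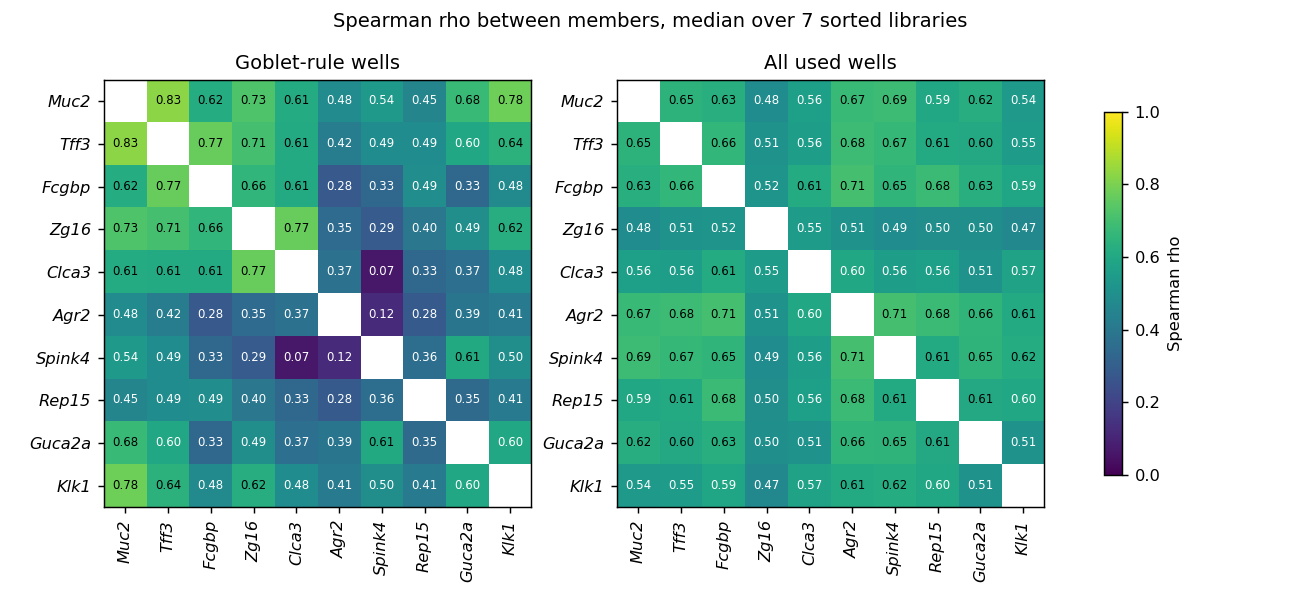
Spearman rho between each pair of members, as the median over 7 sorted libraries, within goblet-rule wells (left) and over all used wells (right), with the value printed in each cell and the colour scale from 0 to 1. Within goblet-rule wells the values run from 0.0656 (Clca3 with Spink4) to 0.827 (Muc2 with Tff3), and over all wells from 0.466 to 0.706.

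The loosest pair in goblet-rule wells of sorted libraries was Clca3 with Spink4. Clca3 and Spink4 were at 0.0656 (-0.142 to 0.168) and Agr2 and Spink4 at 0.121 (-0.149 to 0.314), so Spink4 hardly followed either of them. Spink4 was closer to Guca2a, at 0.609 (0.473 to 0.705), and Zg16 was low with Spink4, at 0.287. Within the wells that were not cycling, Muc2 with Tff3 was at 0.794 and Zg16 with Clca3 at 0.768, while Clca3 with Spink4 was at -0.104 and Agr2 with Spink4 at -0.0357. The median pair was 0.392 there. Over all used wells, where goblet wells are set beside all others, the pairs were more even, from 0.466 for Zg16 with Klk1 to 0.706 for Fcgbp with Agr2, with a median pair of 0.603. In picked libraries the median pair was 0.446 over 14 to 32 goblet-rule wells and 0.489 over all used wells. There Tff3 with Fcgbp was the closest pair in goblet-rule wells at 0.744, and Clca3 with Spink4 was at 0.334 (0.138 to 0.369). After thinning to 2000 transcripts the median pair over all wells was 0.629 in sorted and 0.469 in picked libraries. In wells outside every class, with under 2 of 10000 transcripts from the goblet list, the median pair was 0.172 in picked and 0.0646 in sorted libraries.

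Genes were ranked by how closely they followed the summed level of the 10 members over all used wells, as the median Spearman rho over the 7 sorted libraries among 8260 genes. The sum includes the members, so their own ranks, all within the first 19, are set in part by the measure. The 10 other genes ranked highest were Hepacam2 (0.617, from 0.511 to 0.765), Ccl6 (0.599), Selm (0.597), Atoh1 (0.593), Gcnt3 (0.590), Retnlb (0.580), Tpsg1 (0.564), Ern2 (0.558), Ano7 (0.540) and Bcas1 (0.532). Atoh1 is the transcription factor required for secretory cells, Retnlb a secreted antimicrobial protein of goblet cells, and Ern2 a stress sensor of the endoplasmic reticulum in mucus-secreting cells. Tpsg1, Ern2 and Bcas1 belong to the list that defined the goblet rule.

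Outside goblet-rule wells the members were detected at low levels that differed by library. The sorted libraries had 88.98% to 97.98% of each member's transcripts in goblet-rule wells, as means over the 7 libraries, from Klk1 at 88.98% ± 6.00 and Guca2a at 89.1% ± 6.44 to Zg16 at 97.98% ± 1.56 (SD). In picked libraries the shares were lower, from Spink4 at 59.4% ± 15.2 to Clca3 at 86.8% ± 5.44 (SD, n = 3). Wells outside every class are compared below with the goblet-rule wells of the same library, by description only, because the goblet rule separates them. Muc2 was at 483, 100.03 and 79.1 CPM in outside wells of picked libraries and at 778 and 1113 CPM in GK5b libraries, against 37.6 to 97.9 CPM in GK5a libraries. As a share of the level in goblet-rule wells this was 1.74% to 2.58% in picked, 4.35% and 6.31% in GK5b, and 0.263% to 0.590% in GK5a libraries. Zg16 was at 0.845% to 3.02% in picked, 1.24% and 2.297% in GK5b, and 0.0973% to 0.290% in GK5a libraries. Klk1 was at 2.40% to 3.29% of its goblet level in GK5a libraries. Rep15 was at 0, 0 and 11.3% in picked, 0.883% and 0.895% in GK5b, and 0.158% to 0.892% in GK5a libraries, so the sets overlapped. The 11.3%, in picked replicate 3, was 3.59 CPM. Rep15 had 11 transcripts in all used wells of that library, 8 of them in goblet-rule wells. Guca2a in picked replicate 1 (0.776%) lay within its GK5a range of 0.660% to 1.08%.

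**Figure D3:**
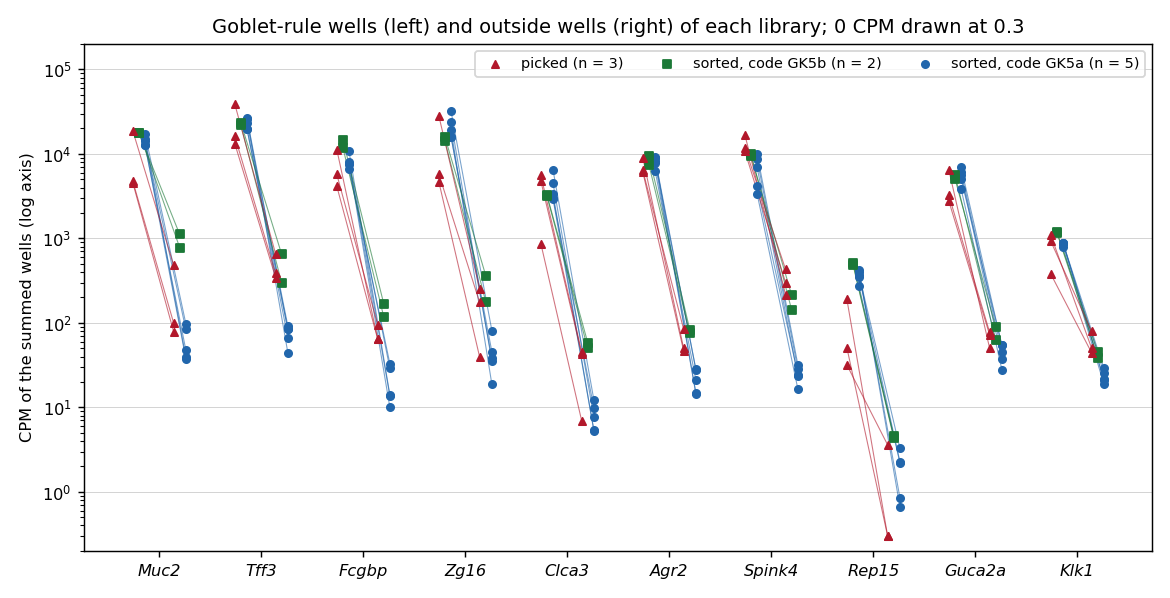
Level of each member (CPM of the summed wells, log axis) in goblet-rule wells (left point) and in outside wells (right point) of each library, joined by a line (red triangles picked, green squares GK5b, blue circles GK5a). Outside wells lie well below goblet-rule wells in every library, and for Muc2 the outside wells of GK5b libraries are at 778 and 1113 CPM against 37.6 to 97.9 CPM in GK5a libraries. Values of 0 are drawn at 0.3.

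The sum of the 10 genes in outside wells was higher in picked than in GK5a libraries, while picked libraries and all sorted libraries together overlapped. It was 0.144% ± 0.0366 of transcripts in picked libraries (SD, n = 3) and 0.0322% ± 0.00719 in GK5a libraries (n = 5), with every picked library above every GK5a library (exact permutation test, two-sided, p = 0.0357). In GK5b libraries it was 0.226% ± 0.0736 (n = 2), and the exact permutation test against GK5a gave p = 0.0952, the smallest that 2 against 5 libraries allow. After thinning to 2000 transcripts, 6.67%, 32.4% and 28.99% of outside wells had none of the 10 members in picked libraries, 0% and 2.99% in GK5b libraries, and 37.5% to 68.9% in GK5a libraries. Median depths before thinning were 2995 to 8007 transcripts in goblet-rule wells and 2485 to 4972 in outside wells of picked libraries, and 3981 to 13523 in goblet-rule and 3300 to 25353 in outside wells of sorted libraries. Single transcripts of a member were thus common outside goblet-rule wells, most of all in GK5b libraries. The ratio of Muc2 to Tff3 was not the same inside and outside: in GK5b libraries it was 0.760 and 0.821 in goblet-rule wells, against 1.73 and 2.64 in outside wells, while in GK5a libraries it was 0.478 to 0.870 in goblet-rule wells and 0.469 to 1.47 in outside wells. Where the transcripts in outside wells came from was not tested.

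Some members were also detected in wells of other classes, in part as single transcripts. Guca2a was at 252.3 and 597 CPM in enterocyte-rule wells of 2 picked libraries and at a median of 537 CPM (56.4 to 782) in those of 5 sorted libraries, above the outside wells of the same library in 2 of 2 and 5 of 5. Those outside wells were at 72.1 and 77.3 CPM in the picked and 28.002 to 54.6 CPM in the sorted libraries. Clca3 and Rep15 were near or at 0 in the same wells, with a median of 0 CPM over the sorted libraries. Muc2 and Zg16 were above outside wells there in 4 of 5 sorted and 0 of 2 picked libraries. In tuft-rule wells Tff3 was at 98.6 to 532 CPM, above outside wells in 4 of 4 sorted libraries (13 wells) and 0 of 1 picked library. It had 3, 5, 1 and 3 transcripts in the tuft-rule wells of those sorted libraries. In enteroendocrine-rule wells, 8 sorted and 3 picked wells, Tff3, Zg16 and Spink4 were above outside wells in 2 of 2 sorted libraries and 1 of 1 picked library. Their counts were low there too: Spink4 had 1 transcript in each sorted library, Zg16 3 and 2, and Tff3 12 and 2. In the picked library Spink4 had 5, Zg16 3 and Tff3 4. Values from so few transcripts do not show that these wells expressed the genes.

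Paneth-rule wells that missed the goblet rule, 26 picked and 24 sorted wells, were looked at after seeing the data. Spink4 was high in them, at 4600, 12291 and 12165 CPM in picked replicates 1 to 3 and at 1836 to 6876 CPM in 4 sorted libraries, which is 27.2% to 112.7% and 54.1% to 98.2% of its level in goblet-rule wells. Muc2 reached 13.1% to 27.6% in picked and 13.004% to 19.4% in sorted libraries, and Guca2a 8.65% to 30.3% and 16.2% to 25.4%. By contrast Zg16 was at 0% to 0.709%, Fcgbp at 0% to 0.609% and Clca3 at 0 in those wells of the 4 sorted libraries. In the picked libraries these 3 genes reached more, with Zg16 at 0.291% to 2.56%, Fcgbp at 0.952% to 3.80% and Clca3 at 0% to 2.29%. Klk1 was at 4.12% to 65.01% in picked and 0% to 25.03% in sorted libraries. Rep15 was at 0% to 164.8% in picked and 0% to 31.4% in sorted libraries. Its highest value, in picked replicate 3, set 52.5 CPM against 31.9 CPM in goblet-rule wells. It rests on very few molecules: Rep15 was found in 16.7% of the 6 Paneth-rule wells of that library. All used wells there held 11 of its transcripts, 8 of them in goblet-rule wells. The goblet list made up 4.15 to 5.69 of 10000 transcripts in these wells of picked and 3.58 to 8.73 in those of sorted libraries. The origin of the members' transcripts in these wells was not tested. Counting goblet-rule and Paneth-rule wells together, 85.5% ± 4.84 of Spink4 transcripts were accounted for in picked and 96.8% ± 1.88 in sorted libraries.

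Over all used wells, GK5b libraries had higher levels of every member than GK5a libraries. All 10 were called higher by limma (adjusted p under 0.05), where 13.2% of 10331 genes passed and 6.09% passed as higher, and both GK5b libraries were above all 5 GK5a libraries for all 10, as for 16% of genes. The median log2 fold change was 1.99 over the members and -0.01 over all genes. Fcgbp had the largest difference, at 10010.1 and 5129 CPM in GK5b libraries and 975 to 1462 CPM in GK5a libraries (log2 fold change 2.54 ± 0.23, adjusted p = 6.48e-05). Zg16 had the smallest, at 10867 and 6175 CPM in GK5b against 1982 to 6061 CPM in GK5a libraries (1.39 ± 0.37, adjusted p = 0.0286). Muc2 was at 12395 and 8071 CPM in GK5b and 1503 to 3423 CPM in GK5a libraries (2.16 ± 0.27, adjusted p = 0.000366), and Agr2 at 6411 and 3192 CPM against 1051 to 1563 CPM (1.85 ± 0.24, adjusted p = 0.000382). Without sorted replicate 6, 2.69% of genes passed, and Zg16 (1.01, adjusted p = 0.396) and Clca3 (1.26, adjusted p = 0.291) lost their calls, and without sorted replicate 5 Zg16 did (1.29, adjusted p = 0.0567). With no filter on low genes, where 5.58% of genes passed, Zg16 (1.42, adjusted p = 0.119) and Clca3 (1.61, adjusted p = 0.0842) lost their calls as well.

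The number of goblet wells moved in the same direction. Goblet-rule wells were 76.1% and 46.7% of used wells in GK5b and 18.03% to 20.5% in GK5a libraries, 61.4% ± 20.8 (SD, n = 2) and 19.6% ± 1.13 (n = 5), with an exact permutation p of 0.0952, the smallest possible. Their 95% Clopper-Pearson intervals, which cover counting error only, were 70.5% to 81.1% and 40.6% to 52.995% in GK5b and lay between 13.3% and 26.5% in GK5a libraries. Within goblet-rule wells the members' share of transcripts was 10.0% and 9.37% in GK5b and 7.52% to 10.2% in GK5a libraries, a difference of 0.439 percentage points (exact permutation p = 0.762). Single members went different ways in these wells, given as a description with no test. Fcgbp was at 14136 and 11601 CPM in GK5b and 6310 to 10142 CPM in GK5a libraries. Zg16 was at 15258 and 13982 CPM against 14810 to 30331 CPM. For Muc2, Klk1 and Rep15 both GK5b libraries also lay above all GK5a libraries, and for Zg16 and the remaining members the sets overlapped. The share of all genes without overlap in these wells was not counted, so this does not set these members apart. In the library sums, fewer cells of a type and less RNA per cell cannot be told apart, and the values per goblet-rule well are given for that reason. Other lists moved with the code: the summed enterocyte list was at 709 and 880.4 CPM in GK5b and 2265 to 5113 CPM in GK5a libraries, with 10 of 10 genes called lower, and 5 of 8 tuft genes were called lower. Among other secreted goblet products 10 of 20 were called higher and 1 lower, led by Retnlb (2003 ± 385 CPM in GK5b and 229.3 ± 13.02 CPM in GK5a libraries, log2 fold change 3.11, adjusted p = 2.57e-07), Hgfac (2.48), Ccl6 (2.34) and Tpsg1 (1.86). Of 15 genes of the transcription factor list, which includes Dll1 and Dll4, 11 were higher and none was lower. Among the higher genes were Creb3l4 (2.22), Creb3l1 (2.21), Spdef (2.07) and Foxa3 (1.96), which are genes of the goblet rule.

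**Figure D4:**
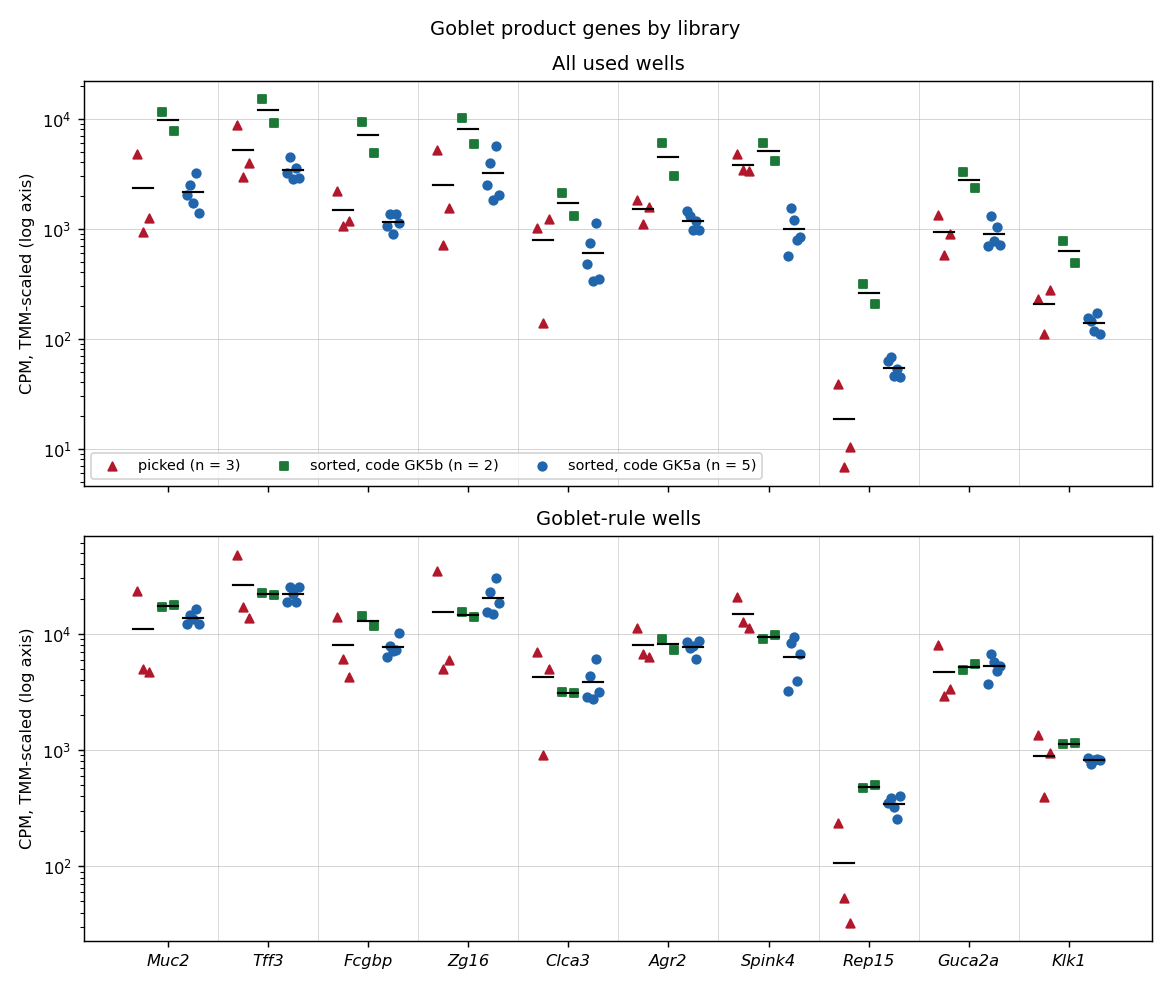
Level of each member (CPM, TMM-scaled, log axis) over all used wells (top) and over goblet-rule wells (bottom) of each library: red triangles picked (n = 3), green squares sorted GK5b (n = 2), blue circles sorted GK5a (n = 5), black bars the mean of each set. Over all wells both GK5b libraries lie above all GK5a libraries for every member, and in both panels the picked libraries lie below all sorted ones for Rep15.

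Between picked and sorted libraries 1 of the 10 members passed over all used wells, where 30.1% of 10427 genes passed and 15.7% passed as lower. Rep15 was at 38.4, 6.75 and 10.3 CPM in picked libraries and from 44.7 to 312.6 CPM with a median of 62.3 CPM in sorted libraries, with no overlap. The log2 fold change was -2.49 ± 0.64 (SE, limma adjusted p = 0.0118). It rests on few molecules, since Rep15 had 35, 5 and 11 transcripts in the picked libraries, and the adjusted p was 0.0698 without picked replicate 2 and 0.0501 without picked replicate 3. The other 9 members did not pass. Muc2 was at 4785, 928 and 1247 CPM in picked and from 1398 to 11591 CPM with a median of 2516 CPM in sorted libraries (log2 fold change -0.86 ± 0.65, adjusted p = 0.338), and the groups overlapped. Spink4 was at 4728, 3380.1 and 3344 CPM in picked and from 567.5 to 6036 CPM with a median of 1191 CPM in sorted libraries (1.32 ± 0.62, adjusted p = 0.123). All picked libraries lay above all GK5a libraries, and picked replicate 1 lay between the GK5b libraries, which were at 4138 and 6036 CPM. Set against GK5a libraries alone, Spink4 was called higher (2.08 ± 0.27, adjusted p = 0.000154) and Rep15 lower, where 32.2% of genes passed. Against GK5b libraries alone 6 members were called, all lower, where 16.3% of genes passed. The median log2 fold change was -0.43 over the members and -0.07 over all genes, and with library totals in place of TMM the median of all genes moved by -0.33 and the share of higher genes among those called to 19.4% against 47.9%.

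Picked libraries had fewer goblet-rule wells, 11.5%, 11.7% and 16% of used wells, against 18.03% to 76.1% with a median of 20.4% in sorted libraries. The means were 13.1% ± 2.54 (SD, n = 3) and 31.5% ± 22.1 (n = 7), and every picked library was below every sorted library (exact permutation test, two-sided, p = 0.0167). Against GK5a libraries alone the difference was -6.49 percentage points (exact permutation p = 0.0357). With wells of 3000 or more transcripts the exact permutation p of picked against sorted was 0.133, and without any 1 picked library it was 0.0556, the smallest possible there. A picked well holds several cells and a sorted well 1 cell, so the 2 shares count different units. Of all transcripts, the 10 members made up 1.53% ± 0.627 in picked, 2.60% ± 2.04 in sorted and 1.49% ± 0.383 in GK5a libraries, and the exact permutation test of picked against sorted gave p = 0.567.

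Within goblet-rule wells 2 of the 10 members passed between picked and sorted libraries, where 22.9% of 5051 genes passed, 10.2% higher and 12.7% lower. Rep15 was at 236.5, 53.8 and 32.96 CPM in picked and from 256.3 to 497 CPM with a median of 388 CPM in sorted libraries (log2 fold change -2.31 ± 0.44, limma adjusted p = 0.00269), again without overlap. Spink4 was at 20877, 12552 and 11166 CPM in picked and from 3251 to 9830.0 CPM with a median of 8372 CPM in sorted libraries (1.10 ± 0.35, adjusted p = 0.0409), and the groups did not overlap. For picked against sorted libraries the share of all genes without overlap is not given, here or over all used wells. The lack of overlap thus describes single genes only. The call on Spink4 held in 13 of 24 alternatives and was lost with wells of another class left out (0.86, adjusted p = 0.0990), with library totals (0.89, adjusted p = 0.0623) and without picked replicate 1 (0.86, adjusted p = 0.104), sorted replicate 4 (adjusted p = 0.0572) or sorted replicate 5 (adjusted p = 0.0627). Within a code, the log2 fold change of Rep15 was -2.66 (adjusted p = 0.0906) against GK5b and -2.17 (adjusted p = 0.0120) against GK5a libraries, and that of Spink4 was 0.61 (adjusted p = 0.229) against GK5b and 1.29 (adjusted p = 0.0326) against GK5a libraries. With the wells chosen by the other 9 members in place of the goblet list, 6 members were called, all lower, and Spink4 was not (0.64, adjusted p = 0.146). Each member had its own fit there, in which 26.5% to 28.6% of genes passed. The summed level of the Paneth list in goblet-rule wells was 13371 to 27099 CPM in picked and 4542 to 26341 CPM in sorted libraries, with 2 of 12 genes called higher and none lower, and the groups overlapped.

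Picked replicate 1 set much of the spread among picked goblet wells. Its goblet-rule wells had 23165 CPM of Muc2, against 5011 and 4708 CPM in picked replicates 2 and 3, and 34870.3 CPM of Zg16, against 4937 and 5988 CPM. The members' share of transcripts was 13.6% in it and 5.36% in each of the other picked libraries. Without picked replicate 1, 5 members were called, all lower, where 24.9% of genes passed, among them Muc2 (-1.55, adjusted p = 0.000107) and Zg16 (-1.69, adjusted p = 0.000772). The other goblet lists are given for the fit with all 3 picked libraries, where 22.9% of genes passed. In it 14 of 26 glycosylation genes were called lower and none higher, including Slc35a1 (-1.35), Galnt7 (-1.29), Gcnt3 (-1.25) and Slc35a2 (-0.94). Of 16 other secreted goblet products 2 were called higher and 2 lower. Of 28 folding genes 12 were lower and 1 higher, including Kdelr2 (-1.34), Dnajc10 (-1.24), Txndc5 (-1.12) and, higher, Fkbp2 (1.02). Of 13 tested genes of the transcription factor list 3 were lower: Atoh1 (143.3 ± 87.1 CPM in picked and 371.8 ± 48.1 CPM in sorted libraries, log2 fold change -1.59), Sox9 (-1.33) and Xbp1 (-0.57). The rule's own list, which chose the wells, had 9 of 18 genes called lower. The median log2 fold change was -0.22 over the members and -0.12 over all genes, and with library totals the median of all genes moved by -0.20 and the share of higher genes among those called to 24.3% against 44.5%.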

How the data were processed

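Transcripts were counted by CEL-seq2 in 10 libraries of 384 wells, sequenced on a NextSeq500. The submitters' processing notes name BWA 0.6.2-r126 and the mm10 build, and the sources used here do not name the counting software or say whether it used strand. The deposited values are the authors' estimates of molecules per gene and well, and all values (100% within 0.001) map to whole barcode counts under the correction for molecules that share one of 4096 barcodes. As deposited they are not whole numbers and were not entered as raw counts, so no count model was used, and they were summed over wells without rounding. ERCC spike-ins stayed out of all sums. Gene symbols and groups come from the deposited tables and the labels, and RefSeq's tables gave Clca1 for Clca3.

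Library sums were scaled with TMM, converted to log2(CPM + 1), filtered (3 libraries with 10 or more transcripts, rescaled to the median depth, and a sum of 15) and tested with limma 3.58.1 (R 4.3.3), with Benjamini-Hochberg adjustment over all genes tested and calls at adjusted p under 0.05. A fold change on this scale understates that of low genes. Single values per library were compared with exact two-sided permutation tests (scipy 1.17.1). Class rules per 10000 transcripts were 500 for Paneth, 20 for enteroendocrine, 10 for tuft and 50 for enterocyte wells, each with at least 3 genes of the list. Outside wells met no rule and had under 2 per 10000 of the goblet list. Levels set beside outside wells, levels in the 3 steps of cycling transcripts and log2 ratios within a library use CPM without TMM. The fits were tested on simulated data, and each of 24 pairs of libraries within a group differed beyond sampling noise. The 10 members and all gene lists were chosen with earlier results of these data known. Named list genes are those with the smallest p, at most 4 per list and comparison, and 1 gene so named is not reported here. Alternatives changed the scaling, pseudocount, filter, well minimum, goblet and cycling thresholds, depth and libraries.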

Additional observations from a re-analysis of the deposited data

Results flagged for a closer look

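In a search for single libraries far from the others, 60 sets of 5 to 7 libraries were looked at and 2 stood out, where chance alone marks about 1 in 20 sets. Sets of GK5a libraries lie within sets of all sorted libraries, so the sets are not independent. Agr2 over all used wells, with all 10 libraries scaled together, was at 5995 CPM in sorted replicate 6, far above the next highest sorted library at 3031 CPM. That library also had the highest percentage of goblet-rule wells, 76.1%. The log2 ratio of cycling to other goblet-rule wells for Clca3 was -4.12 in sorted replicate 5, where the next lowest was -2.16. That library had 7 cycling goblet-rule wells.

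Wells with under 1000 transcripts entered no comparison, and the members were found in them too. The members' share of the transcripts in these wells ran from 1.02% in picked replicate 2 to 6.23% in sorted replicate 6, where their share in the used wells was 0.989% and 6.57%. In sorted replicate 3 it was 2.33% in these wells and 1.18% in used wells, and in picked replicate 1 it was 1.45% in these wells and 2.22% in used wells.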

How the results depend on the processing

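No paired analysis was possible for picked against sorted or GK5b against GK5a libraries because these groups share no replicate numbers in the labels. In cycling against other goblet-rule wells each library was a block, and without it 10 of 10 members were again called. All 10 kept their calls and direction there under all 23 alternatives, with Zg16 from -4.61 to -2.37 and Agr2 from -1.25 to -0.74. In that comparison 23.8% of the genes tested were called, against 4.88% with no filter, 15.4% with mean CPM per well, 10.3% with the goblet rule at 20 per 10000, 12.5% in GK5a libraries, 9.68% after thinning and 16.7% without sorted replicate 7. For GK5b against GK5a it was 13.2%, and 2.69% without sorted replicate 6, and 8 to 10 members were called under the 14 alternatives, all higher.

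For picked against sorted libraries over all used wells, where 1 member was called, 2 were called against GK5a libraries alone and 6 against GK5b libraries alone, and leaving out 1 library gave 0 to 2. The 0 came without picked replicate 2 or 3, with 1 member at an unadjusted p under 0.05 each. Of the genes tested 30.1% were called, and 16.3% against GK5b libraries alone. Of 190 fold changes of members, 18 changed sign, none of them called: against GK5a libraries alone Tff3 (0.54), Klk1 (0.53), Agr2 (0.40), Fcgbp (0.35), Clca3 (0.10) and Guca2a (0.068), against GK5b libraries alone Spink4 (-0.38), and with median-of-ratios scaling Tff3 (0.0035). Leaving out 1 library gave -0.48 to 0.30 for Tff3, -0.97 to 0.59 for Clca3, -0.35 to 0.13 for Agr2 and -0.41 to 0.26 for Klk1.

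Within goblet-rule wells 2 members were called, and 1 with no filter, with mean CPM per well, with the goblet rule at 20 per 10000, after thinning or with other classes left out, the last 2 added after seeing the data. GK5b libraries alone gave 0 (1 member at an unadjusted p under 0.05), a rule on the other 9 members 6, all lower, and leaving out 1 library 1 to 5. Of the genes tested 22.9% were called, against 13.7% and 5.42% with GK5a or GK5b libraries alone and 29.5% of fewer genes after thinning. Of 240 fold changes 26 changed sign. For Tff3 these were -0.17 with library totals, -0.093 with no filter, -0.072 with the rule at 5 and -0.27 with the rule on members. For Agr2, at 0 within 2 decimals in the reported fit, they were 0.045 with median-of-ratios scaling, 0.0030 with whole barcodes, 0.092 with wells of 3000 or more, 0.029 with mean CPM, 0.017 in GK5a libraries and 0.015 with the rule at 20. For Clca3 they were 0.22 with mean CPM, 0.033 in GK5b libraries and 0.19 after thinning, and for Fcgbp 0.0023 with mean CPM. Leaving out 1 library gave -0.48 to 0.41 for Tff3, called lower without picked replicate 1, -0.76 to 0.071 for Fcgbp, -0.68 to 0.81 for Clca3, -0.22 to 0.17 for Agr2, -0.69 to 0.065 for Guca2a and -0.51 to 0.40 for Klk1.

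The percentage of goblet-rule wells differed by -14.8 points with wells of 3000 or more (exact permutation p = 0.133) and by -48.4 against GK5b libraries alone (p = 0.2, the smallest possible in an exact permutation test of that size). Without 1 library it ran from -20.7 to -11.0, with an exact permutation p of 0.0556 without a picked library, again the smallest possible. The members' share of transcripts was 0.0421 points higher in picked than in GK5a libraries (exact permutation p = 0.821). The cause of these changes was not tested. Few goblet-rule wells in picked libraries and few transcripts of Rep15 limit what those comparisons can show.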
